A study of Mus musculus with 24 samples.

Results

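The miR-193b and miR-365-1 genes form a small miRNA cluster on mouse chromosome 16. It yields 4 mature arms, miR-193b-3p, miR-193b-5p, miR-365-3p and miR-365-1-5p, and these were measured in subcutaneous fat by small RNA sequencing. The arms were chosen by position, as the 4 counted loci on the plus strand within the stretch that holds both hairpins. They are 4 of the 1907 mature sequences in the deposited table once loci with the same mature accession are summed. The summing matters for miR-365-3p, whose sequence is also encoded on chromosome 11. All 4 arms passed the filter on low counts, as did 582 features in total.

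The 24 libraries came from female mice in 4 groups of 6: kinase dead trained, kinase dead sedentary, wild type trained and wild type sedentary (labelled KinaseDead or WildType, and Trained or Sedentary). All mice ate chow and were housed at constant light cycle and temperature. Trained mice ran on a motorised treadmill for 1 hour on 5 days a week over 6.5 weeks, at 16 m/min, and had a running wheel throughout. The sources used here do not give whether sedentary mice had a wheel, which kinase is inactive and in which cells, or which subcutaneous depot was taken. Nothing says that each library is a different mouse, so every p below refers to the spread among libraries, which may be technical. The tissue is whole fat, so fewer cells of a type and less RNA per cell cannot be told apart in any value below.

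A miRNA is cut from a hairpin as a pair of strands, of which one, the main arm, usually persists in Argonaute while the other, the passenger arm, is mostly degraded. Bases 2 to 8 of an arm, the seed, choose its targets, so arms with the same seed share most predicted targets. The miR-193b and miR-365 cluster is known from mouse brown preadipocytes, where blocking it impaired brown adipocyte differentiation. Adding miR-193b to mouse myoblasts turned those cells towards brown adipocytes. Mice that lack the cluster were nevertheless reported to form brown fat. In mice, exercise can give subcutaneous fat some features of brown fat.

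Both hairpins are shown first, with the mature arms in capitals, because every value below counts reads on these 4 stretches. Sequences are from RefSeq on GRCm38 (mm10), 5′ to 3′ on the plus strand, with Mir193b at chr16:13449523-13449601 and Mir365-1 at chr16:13453840-13453926.
Mir193b: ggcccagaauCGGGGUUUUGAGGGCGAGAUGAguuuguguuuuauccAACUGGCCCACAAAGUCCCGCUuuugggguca
Mir365-1: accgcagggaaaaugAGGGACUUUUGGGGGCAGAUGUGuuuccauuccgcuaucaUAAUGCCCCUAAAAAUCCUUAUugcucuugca
The hairpins are 79 and 87 bases long and 4238 bases apart. In the GENCODE annotation both lie inside Gm15738, an antisense gene on the minus strand (13354374 to 13468755), and 0 of its exons touch either hairpin, so they are intronic to a gene on the other strand. In RefSeq both fall within the long noncoding RNA genes Gm32817 and Gm53058, which start at 13447952. The nearest GENCODE gene before them is Mrtfb, a coactivator of serum response factor, 31993 bases from Mir193b. No counted locus on the opposite strand overlapped any of the arms.

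The mature arms are set beside their chromosome 11 counterparts, since a duplicate of the cluster there (Mir193a and Mir365-2, 14365 bases apart) makes arms of identical or similar sequence. Seeds are in capitals.
miR-193b-3p: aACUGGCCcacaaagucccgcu
miR-193a-3p: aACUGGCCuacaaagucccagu
miR-193b-5p: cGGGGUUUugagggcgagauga
miR-193a-5p: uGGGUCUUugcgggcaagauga
miR-365-3p: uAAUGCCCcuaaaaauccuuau
miR-365-1-5p: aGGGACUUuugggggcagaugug
miR-365-2-5p: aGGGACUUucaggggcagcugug
miR-193b-3p and miR-193a-3p share the seed ACUGGCC and 19 of 22 bases, and differ by C9U, G20A and C21G, counted from 1 at the 5′ end with the chromosome 16 base first. These are the only 2 mature miRNAs with that seed in the RefSeq table. miR-365-3p is identical from both chromosomes and stands alone with its seed AAUGCCC. The miR-365 5p arms share the seed GGGACUU and 20 of 23 bases, with U10C, G11A and A19C between them. miR-193b-5p and miR-193a-5p share 17 of 22 bases and have different seeds.

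Library totals were 1.60 to 23.6 M reads. Mean totals were 10.8 M in trained and 6.71 M in sedentary kinase dead libraries. In wild type they were 9.95 M in trained and 6.59 M in sedentary libraries. Trained libraries were thus deeper on average, and the part of depth in the values below was not tested. In 7 libraries, 2 kinase dead trained, 2 kinase dead sedentary, 2 wild type trained and 1 wild type sedentary, the lymphocyte miRNA miR-150-5p was at 2000 CPM (reads per 1000000 reads of the library) or more, and the summed level of 5 lymphocyte markers lay between 13170.0 and 21480.0 CPM, against 1443 to 3295 CPM in the other 17. These 7 are called lymphocyte-rich here. The 3 miRNAs abundant in fat but not specific to it (miR-378a-3p, miR-148a-3p and miR-143-3p) summed to 118600.0 to 243300.0 CPM, and epithelial markers to 11860.0 to 24320.0 CPM. No miRNA marks the adipocyte alone, so the tissue label could be checked only this far.

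By mean level, the main arms ranked in the upper part of the tested miRNAs. miR-365-3p, both loci summed, averaged 727 ± 153 CPM (SD, n = 24) and ranked 92 of the 582 tested features. miR-193b-3p averaged 299.96 ± 59.2 CPM (SD, n = 24) and ranked 136. The passenger arms were scarce, with miR-193b-5p at 4.90 ± 1.36 CPM (rank 429) and miR-365-1-5p at 3.39 ± 0.987 CPM (rank 457; SD, n = 24). All levels are CPM scaled by TMM factors, which correct library sizes for composition. Reads were counted per locus of 22 or 23 bases, so the arms can be compared with each other in CPM, though adapter ligation can favour one sequence over another.

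The depth behind the arms differed accordingly. miR-193b-3p had 61079 reads over all libraries, with 713 to 8496 in each, and miR-365-3p had 75206 reads at chromosome 16 and 75860 at chromosome 11. miR-193b-5p had 1097 reads, 6 to 158 a library, and miR-365-1-5p 760 reads, 4 to 125 a library. The passenger arms are thus read with large counting error in the shallow libraries.

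miR-193b-3p varied 2.22-fold between its lowest and highest library, from 189.6 CPM in kinase dead sedentary replicate 6 to 420.2 CPM in wild type sedentary replicate 4, which are both sedentary. miR-365-3p varied 2.46-fold, from 458.8 CPM in kinase dead sedentary replicate 6 to 1129.7 CPM in kinase dead trained replicate 1. Beyond counting error, edgeR estimated a variation between libraries of a group of 23.2% for miR-193b-3p and 23.6% for miR-365-3p, which may be technical. The median over the 124 features with a mean of 100 to 1000 CPM was 26.0%, so the main arms were about as steady as other miRNAs of their abundance.

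In kinase dead mice, none of the 4 arms passed the test over all features for a change with training. miR-193b-3p had a lowest, median and highest level of 222.1, 299.9 and 378.7 CPM in trained kinase dead libraries, against 189.6, 301.7 and 332.7 CPM in sedentary ones. The medians were nearly equal and the groups overlapped. The log2 fold change was 0.08 (SE 0.17), with a 95% interval of -0.27 to 0.44 (adjusted p = 0.995, quasi-likelihood test of edgeR, Benjamini-Hochberg adjustment over all 582 features).

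miR-365-3p lay at 608.5, 732 and 1129.7 CPM (lowest, median and highest) in trained kinase dead libraries, against 458.8, 662 and 846 CPM in sedentary ones. Trained kinase dead replicates 1 and 2, at 1129.7 and 997 CPM, were the 2 highest of all 24 libraries, and the other 4 of that group lay within the sedentary range. The log2 fold change was 0.32 (SE 0.17, interval -0.04 to 0.68, unadjusted p = 0.0794, adjusted p = 0.995 by edgeR), and 0.20 without trained kinase dead replicate 1.

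The passenger arm miR-365-1-5p showed the highest fold change of the 4 in this comparison. It lay at 2.80, 3.97 and 5.10 CPM (lowest, median and highest) in trained kinase dead libraries, against 1.398, 2.77 and 3.98 CPM in sedentary ones. All 6 trained libraries were above the sedentary median, and the groups overlapped. Its log2 fold change of 0.62 (SE 0.23, interval 0.14 to 1.09) ranked 6 by p among all tested features (unadjusted p = 0.0140, adjusted p = 0.995 by edgeR), so it did not pass. miR-193b-5p was at a log2 fold change of -0.19 (SE 0.23), with a median of 4.66 CPM in trained and 4.57 CPM in sedentary kinase dead libraries. Over all 582 features edgeR called 0 in this comparison (0%) and DESeq2 called 0; at an unadjusted p under 0.05 there were 14 by edgeR (2.41%) and 15 by DESeq2 (2.58%), and miR-365-1-5p was the one arm of the 4 among edgeR's 14.

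**Figure D1:**
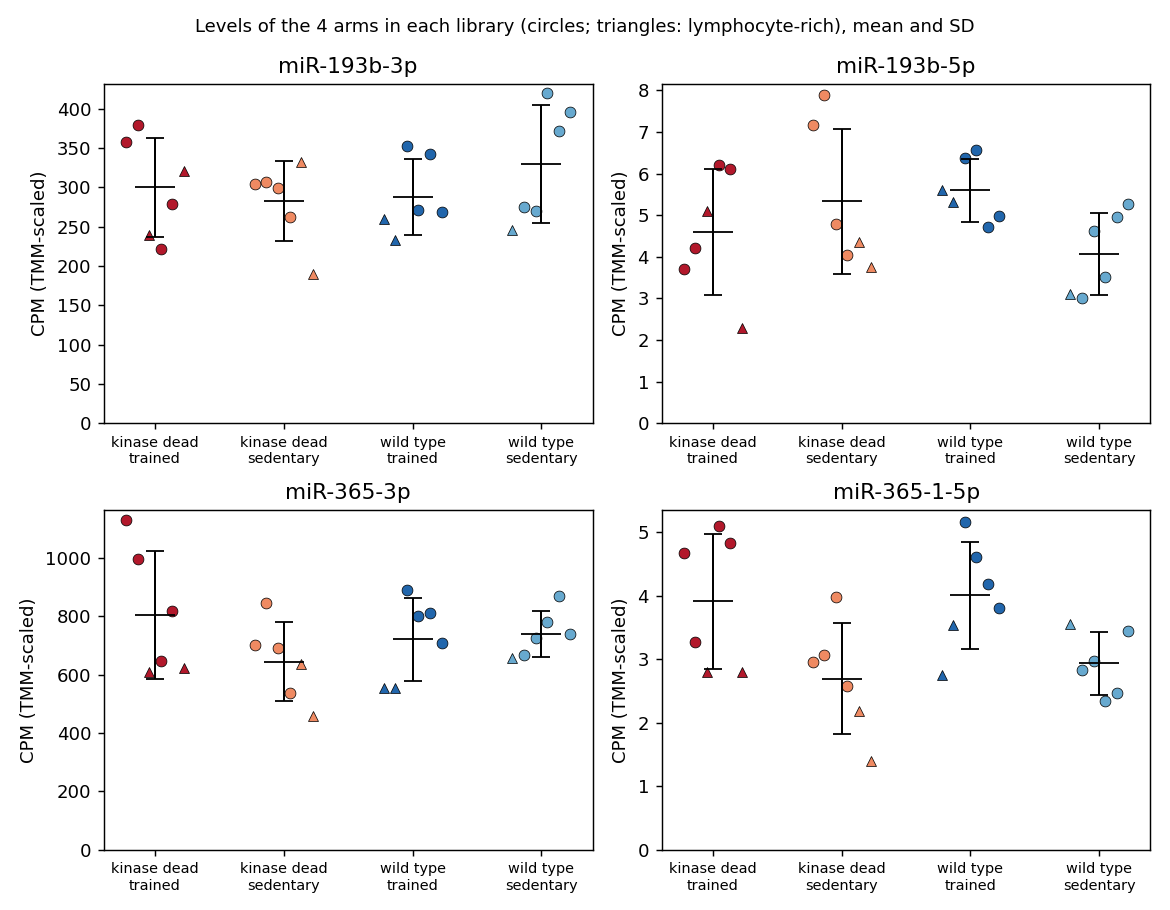
Levels of the 4 arms in TMM-scaled CPM on linear axes that start at 0, by group: kinase dead trained, kinase dead sedentary, wild type trained and wild type sedentary. Each circle or triangle (lymphocyte-rich) is 1 library, with the mean and the SD over 6 libraries drawn as bars. All groups overlap in every panel, and in the miR-365-1-5p panel both trained groups have higher means, 3.91 and 4.01 CPM, than both sedentary groups, 2.69 and 2.94 CPM.

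In wild type mice the arms of miR-193b pointed in different directions with training, and neither passed. miR-193b-3p lay at 233.3, 269.8 and 352.5 CPM (lowest, median and highest) in trained wild type libraries, against 245.4, 323 and 420.2 CPM in sedentary ones, a log2 fold change of -0.19 (SE 0.17, interval -0.55 to 0.16, adjusted p = 0.886 by edgeR). Only 2 of 6 trained libraries were above the sedentary median. miR-193b-5p lay at 4.71, 5.46 and 6.58 CPM in trained wild type libraries, against 3.02, 4.07 and 5.26 CPM in sedentary ones. All 6 trained libraries exceeded the sedentary median, and the groups overlapped between 4.71 and 5.26 CPM. The log2 fold change was 0.44 (SE 0.24, interval -0.05 to 0.93, unadjusted p = 0.0753, adjusted p = 0.779).

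miR-365-3p was nearly level in wild type mice, at 554.2, 754 and 890.9 CPM (lowest, median and highest) in trained libraries, against 656.6, 733 and 868.8 CPM in sedentary ones. The log2 fold change was -0.04 (SE 0.17, interval -0.40 to 0.32), and 0.12 without the lymphocyte-rich libraries. The 2 lowest trained libraries, at 554.1 and 554.2 CPM, were the lymphocyte-rich ones of that group. miR-365-1-5p lay at 2.76, 3.99 and 5.16 CPM in trained wild type libraries, against 2.34, 2.91 and 3.55 CPM in sedentary ones, and 5 of 6 trained libraries were above the sedentary median. Its log2 fold change was 0.42 (SE 0.23, interval -0.06 to 0.89, unadjusted p = 0.0816, adjusted p = 0.779 by edgeR). Without the lymphocyte-rich libraries it was 0.62 (unadjusted p = 0.00417, adjusted p = 0.226 by edgeR). Of 582 features, edgeR called 0 (0%) and DESeq2 0 for training in wild type; 31 by edgeR (5.33%) and 38 by DESeq2 (6.53%) had an unadjusted p under 0.05, and none of the 4 arms was among edgeR's 31.

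With training averaged over both genotypes, miR-365-1-5p stood near the top of all miRNAs by p and still did not pass. Its log2 fold change was 0.52 (SE 0.16, interval 0.18 to 0.85), or 1.43-fold, and it ranked 3 by p of 582 (unadjusted p = 0.00425, adjusted p = 0.559 by edgeR). Without the lymphocyte-rich libraries it was 0.59 (unadjusted p = 0.000538, adjusted p = 0.105 by edgeR), and the fits without each library in turn gave 0.41 to 0.55. This average rests on 760 reads, and trained libraries were on average deeper than sedentary ones. The main arm miR-365-3p is a sum over both loci, so its value is not that of the hairpin of miR-365-1-5p alone. It stood at 0.14 on the log2 scale (SE 0.12, interval -0.11 to 0.39). Without the lymphocyte-rich libraries it stood at 0.23 (unadjusted p = 0.0677, adjusted p = 0.417 by edgeR), and without each library in turn at 0.05 to 0.15. On the same scale miR-193b-3p stood at -0.06 (SE 0.12, interval -0.31 to 0.20) and miR-193b-5p at 0.13 (SE 0.17). The counterpart miR-365-2-5p, with the same seed, stood at 0.21 on that scale (SE 0.21, interval -0.23 to 0.66). edgeR and DESeq2 called 0 of 582 features (0%), and the unadjusted p was under 0.05 for 36 by edgeR (6.19%) and 38 by DESeq2 (6.53%), and miR-365-1-5p was the one arm of the 4 among edgeR's 36.

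The genotype comparison asks whether the arms differ between genotypes at the same training status. Among trained mice, miR-193b-3p averaged 299.8 ± 63.4 CPM in kinase dead and 287.9 ± 48.3 CPM in wild type libraries (SD, n = 6 each), for a log2 fold change of 0.06 (SE 0.17, interval -0.30 to 0.41), and -0.06 without the lymphocyte-rich libraries. miR-365-3p averaged 803.8 ± 218.7 CPM in kinase dead and 719.97 ± 141 CPM in wild type trained libraries, a log2 fold change of 0.16 (SE 0.17, interval -0.20 to 0.52). miR-193b-5p was at -0.25 (SE 0.23) and miR-365-1-5p at -0.01 (SE 0.22) on the log2 scale, the sign of the last depending on the setting. All adjusted p were 0.996 by edgeR. edgeR and DESeq2 called 0 of 582 features (0%), and the unadjusted p was under 0.05 for 4 by edgeR (0.687%) and 9 by DESeq2 (1.55%), none of edgeR's 4 being an arm of the cluster.

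Among sedentary mice both main arms had lower means in kinase dead libraries, by less than the SD among those libraries. For miR-365-3p the difference exceeded the SD among wild type libraries. miR-193b-3p averaged 282.5 ± 50.8 CPM in kinase dead and 329.6 ± 74.6 CPM in wild type (SD, n = 6 each), for a log2 fold change of -0.22 (SE 0.17, interval -0.58 to 0.13), and of -0.21 to -0.10 in the fits without each library in turn. miR-365-3p averaged 644 ± 136 CPM in kinase dead and 739.7 ± 78.3 CPM in wild type, a log2 fold change of -0.20 (SE 0.17, interval -0.56 to 0.16), and 1 of 6 kinase dead libraries lay above the wild type median. This value lay between -0.20 and -0.08 when single libraries were left out, and was -0.11 without the lymphocyte-rich libraries. The passenger arm miR-193b-5p averaged 5.33 ± 1.75 CPM in kinase dead and 4.08 ± 0.984 CPM in wild type, at 0.38 (SE 0.24, interval -0.12 to 0.88) on the log2 scale. miR-365-1-5p was at -0.21 (SE 0.24), and at 0.09 without the lymphocyte-rich libraries. All adjusted p were 0.991 by edgeR. edgeR and DESeq2 called 0 of 582 features (0%), and the unadjusted p was under 0.05 for 7 by edgeR (1.2%) and 6 by DESeq2 (1.03%), and no arm of the cluster was among edgeR's 7.

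The difference of the training effects, kinase dead minus wild type, was tested as an interaction. It was 0.28 (SE 0.24, interval -0.22 to 0.78) on the log2 scale for miR-193b-3p and 0.36 (SE 0.25, interval -0.15 to 0.87) for miR-365-3p. For miR-193b-5p it was -0.63 (SE 0.33, interval -1.31 to 0.06), and for miR-365-1-5p 0.20 (SE 0.33, interval -0.48 to 0.87). Without the lymphocyte-rich libraries these values were 0.17 for miR-193b-3p, 0.21 for miR-365-3p, -0.68 for miR-193b-5p and -0.07 for miR-365-1-5p. None passed (adjusted p = 0.993 for each by edgeR), so a different response of the arms in the 2 genotypes was not shown. The intervals allow a difference of up to 0.87 for miR-365-3p. edgeR and DESeq2 called 0 of 582 features (0%), and the unadjusted p was under 0.05 for 13 by edgeR (2.23%) and 10 by DESeq2 (1.72%), with no arm of the cluster among edgeR's 13.

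**Figure D2:**
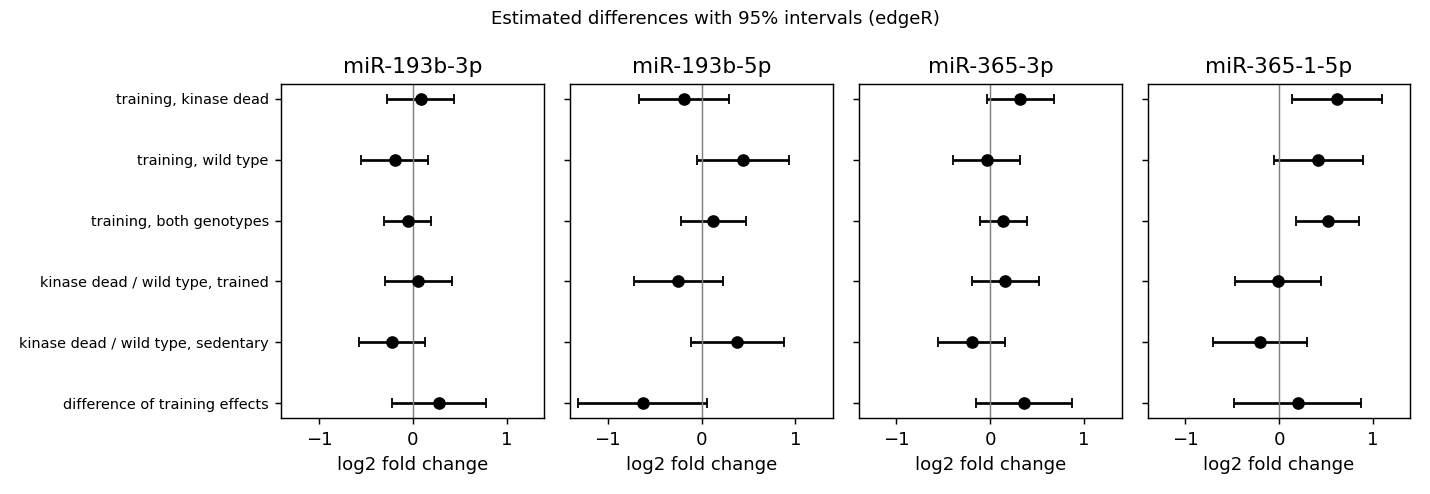
Log2 fold changes of the 4 arms (points) with 95% intervals (bars) from edgeR, for the 6 comparisons: training in kinase dead, training in wild type, training averaged over genotypes, kinase dead over wild type in trained and in sedentary mice, and the difference of the training effects. The intervals of miR-365-1-5p for training in kinase dead (0.14 to 1.09) and averaged (0.18 to 0.85) lie above 0 without adjustment, and every other interval spans 0.

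Across groups, the order of the mean levels differed between arms. For miR-193b-3p wild type sedentary was highest, followed by kinase dead trained, wild type trained and kinase dead sedentary, the last at 282.5 CPM. For miR-365-3p kinase dead trained was highest, followed by wild type sedentary, wild type trained and kinase dead sedentary. For miR-365-1-5p wild type trained and kinase dead trained came first, and for miR-193b-5p wild type trained and kinase dead sedentary. In every arm, all neighbours in these orders overlapped between libraries, and the 2 passenger arms did not follow the order of their main arms. The order of miR-365-3p is that of both loci summed, while miR-365-1-5p comes from a single locus.

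The ratio of miR-193b-3p to miR-365-3p was 0.317 to 0.539 over the 24 libraries (median 0.413), a 1.70-fold range, so miR-193b-3p never exceeded miR-365-3p, which has a second source on chromosome 11. Its median was 0.361 in kinase dead trained and 0.434 in kinase dead sedentary libraries, and 0.408 in wild type trained and 0.420 in wild type sedentary libraries. In two-sided exact permutation tests of the log2 ratio (pseudocount 0.5 CPM) the training difference was -0.22 in kinase dead (p = 0.108) and -0.12 in wild type (p = 0.325), and the genotype differences were -0.09 in trained mice (p = 0.455) and 0.01 in sedentary mice (p = 0.959). Adjusted over the 16 ratio tests made, these were 0.577 to 0.959. Without the lymphocyte-rich libraries the training differences were -0.31 in kinase dead (exact permutation p = 0.0571) and -0.24 in wild type (exact permutation p = 0.143), with adjusted p of 0.305 and 0.457.

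The ratio of the main to the passenger arm of miR-193b was 35.8 to 140.2 (median 60.6). In wild type libraries it lay at 41.2, 50.04 and 72.7 (lowest, median and highest) after training, against 58.4, 77.1 and 119.5 in sedentary mice. The mean log2 ratio was 0.61 lower after training in wild type (exact permutation p = 0.00433, n = 6 each, adjusted p = 0.0693), which did not pass after adjustment. In sedentary mice it was 0.54 lower in kinase dead than in wild type (exact p = 0.0260, adjusted p = 0.208). In kinase dead mice the training difference was 0.28 (exact p = 0.400), with a range of 35.8 to 140.2 in trained libraries. These ratios have few reads of miR-193b-5p below the line, 6 in wild type sedentary replicate 4, the library with the ratio of 119.5.

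For miR-365, the main arm exceeded the sum of both 5p arms 52.6- to 147-fold (median 77.8). The median was 77.0 in kinase dead trained and 93.9 in kinase dead sedentary libraries, and 70.4 in wild type trained and 87.5 in wild type sedentary ones. No difference passed: the smallest exact permutation p of the 4 comparisons was 0.197, for training in wild type (adjusted p = 0.696, n = 6 each).

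Of the miR-365 arms, only the 5p arms differ in sequence between chromosome 16 and chromosome 11. The identical miR-365-3p was divided almost evenly between the loci, with 48.4% to 53.2% of its reads at chromosome 16 (pooled 49.8%, 95% interval 49.5% to 50.04%, exact binomial). Settings for multiple mapping are not given, so how these reads were divided is not known. The division was therefore not used to tell their source. Of the 5p reads 37.3% were miR-365-1-5p, from chromosome 16 (760 of both loci's reads, against 1275 of miR-365-2-5p; interval 35.2% to 39.5%), and miR-365-1-5p was below miR-365-2-5p in 22 of 24 libraries. Intervals here cover counting error only, since reads without molecular identifiers are not independent molecules.

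By group the pooled chromosome 16 share of the 5p reads was 40.2% (interval 36.6% to 43.8%) in kinase dead trained and 31.9% (26.7% to 37.5%) in kinase dead sedentary libraries. It was 38.4% (34.6% to 42.3%) in wild type trained and 34.4% (29.6% to 39.5%) in wild type sedentary libraries. Pooled shares follow the deep libraries, and the library medians had another order: 37.3% in kinase dead trained and 39.1% in kinase dead sedentary, and 39.5% in wild type trained and 32.8% in wild type sedentary libraries. Single libraries ranged from 23.3% (interval 15.5% to 32.7%) in kinase dead sedentary replicate 1 to 60.9% (47.9% to 72.9%) in kinase dead trained replicate 1, and every pair of groups overlapped. The 5p share counts passenger arms and is not a measure of transcription.

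**Figure D3:**
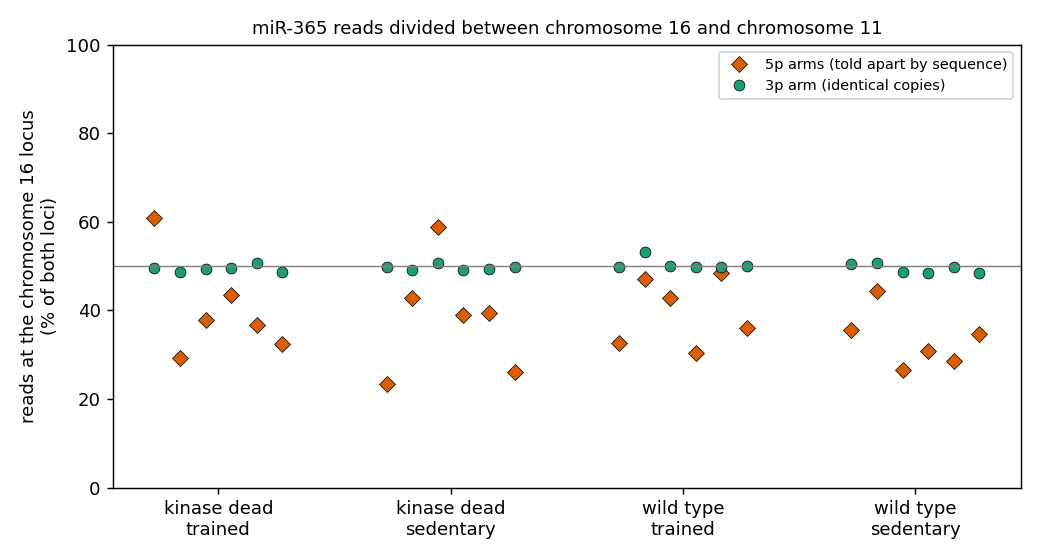
Percentage of miR-365 reads at the chromosome 16 locus in each library, by group, for the identical 3p arm (circles) and for the 5p arms that differ in sequence (diamonds), with a grey line at an even division. The circles lie between 48.4% and 53.2%, and the diamonds between 23.3% and 60.9%, mostly below the line.

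The same-seed miRNA from chromosome 11, miR-193a-3p, ranged more widely between libraries than miR-193b-3p. It averaged 249 ± 259 CPM (SD, n = 24), against 299.96 CPM for miR-193b-3p, and ranged from 37.2 to 1059 CPM. Its median was 137 CPM, against 289 CPM for miR-193b-3p, and the median ratio of miR-193b-3p to it was 1.92. At 88.6%, its variation beyond counting error was the highest of the 124 features of 100 to 1000 CPM, where miR-193b-3p had 23.2%. The ratio of miR-193b-3p to miR-193a-3p therefore varied 24.2-fold, from 0.357 to 8.64. No group difference of that ratio passed (smallest exact permutation p of the 4 comparisons 0.260, adjusted p = 0.696, n = 6 each).

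miR-193a-3p had a lowest, median and highest level of 37.2, 90.0 and 1059 CPM in kinase dead trained libraries, against 95.2, 179 and 701 CPM in kinase dead sedentary ones. In wild type mice these were 40.8, 117 and 418 CPM in trained libraries, against 47.3, 273 and 727 CPM in sedentary ones. High and low libraries occurred in every group. Its passenger arm miR-193a-5p did not share this spread, at 38.0 ± 10.03 CPM (SD, n = 24) and a biological variation of 25.9%, and was 0.39 higher on the log2 scale with training averaged over genotypes (SE 0.15, unadjusted p = 0.0137, adjusted p = 0.698 by edgeR), which did not pass.

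**Figure D4:**
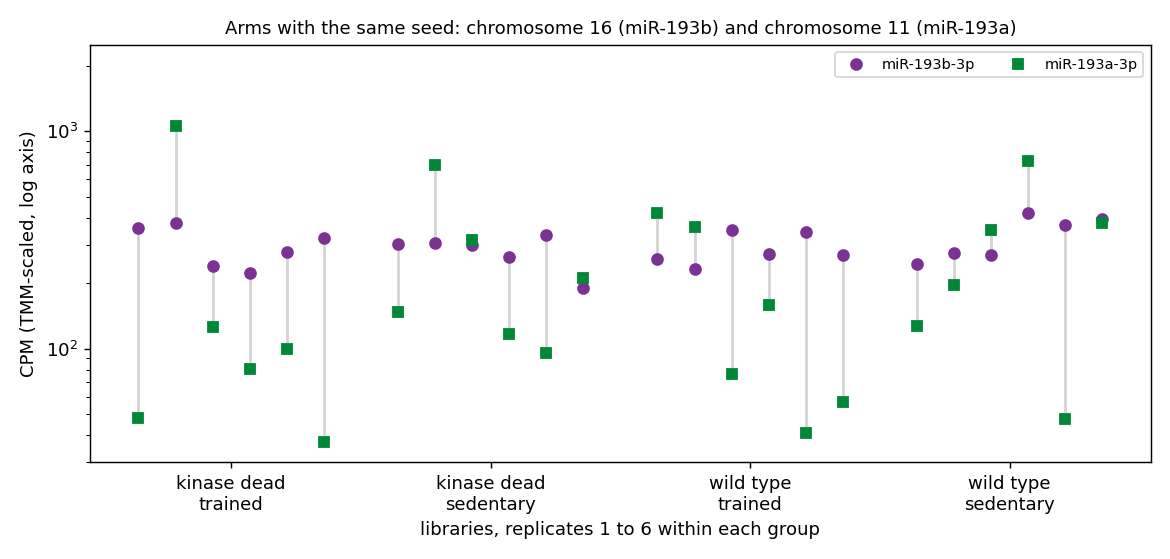
Levels in each library, in TMM-scaled CPM on a log axis, of miR-193b-3p (circles) and of miR-193a-3p (squares), joined by a line per library and ordered by replicate number within each group. The circles lie between 189.6 and 420.2 CPM, and the squares between 37.2 and 1059 CPM.

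The main arms of the cluster tended to vary together between libraries. Because the lymphocyte-rich libraries stand apart, relations were computed within the other 17 and within the 7. Here and in the relations with markers and other miRNAs below, libraries of all groups were pooled without adjustment for group. Differences between groups therefore enter r and its p. In the 17, log2 levels of miR-193b-3p and miR-365-3p had a Pearson r of 0.60 (permutation p = 0.00937, adjusted p = 0.112 over 12 relations) and a Spearman rho of 0.66 (p = 0.00432, adjusted p = 0.0518). Without the 2 libraries farthest from the median of miR-193b-3p r was 0.64. In the 7 lymphocyte-rich libraries r was 0.74 (exact permutation p = 0.0629) and rho 0.71 (p = 0.0881), and r was 0.79 without 2 libraries. Neither relation passed after adjustment.

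No relation of a passenger arm with its main arm passed in these libraries. In the 17, r was -0.25 between miR-193b-3p and miR-193b-5p (permutation p = 0.336) and 0.29 between miR-365-3p and miR-365-1-5p (p = 0.269). Of the last pair, miR-365-3p sums both loci, while miR-365-1-5p comes from a single locus. The passenger arms of the 2 hairpins had an r of 0.38 with each other (permutation p = 0.126). All adjusted p of these 3 relations were at least 0.379, and the counting error of the passenger arms limits what such an r can show.

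**Figure D5:**
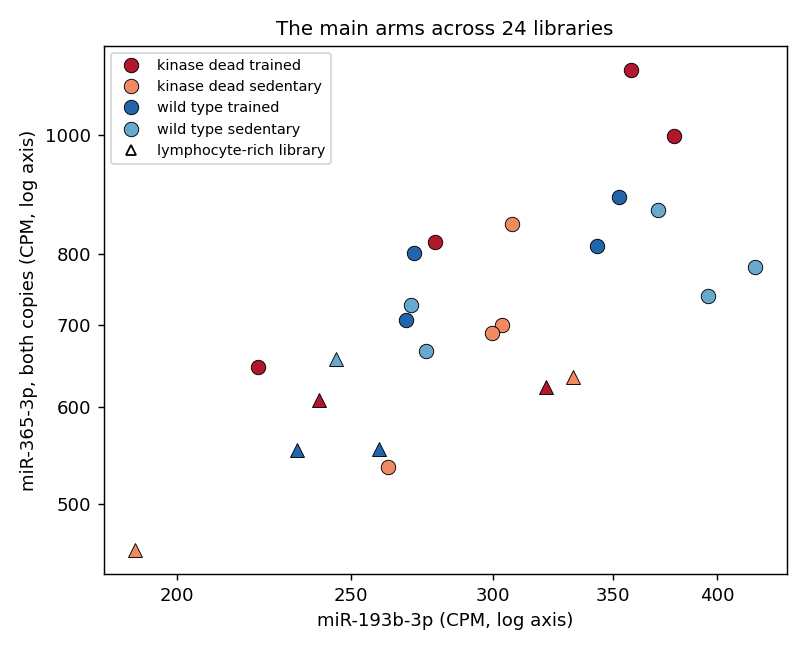
Levels of miR-193b-3p (x) and of miR-365-3p summed over both loci (y) in each of 24 libraries, in CPM on log axes. Circles are the 17 libraries low in lymphocyte markers and triangles the 7 lymphocyte-rich ones, coloured by group. Libraries with more miR-193b-3p tend to have more miR-365-3p, with an r of 0.60 in the 17 and 0.74 in the 7.

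Markers of other cell types moved with the main arms in places. miR-365-3p was at 459 to 657 CPM (median 608.5) in the lymphocyte-rich libraries, against 536 to 1129.7 CPM (median 780.0) in the others, and miR-193b-3p at 189.6 to 332.7 CPM (median 245) against 222 to 420.2 CPM (median 304). The adipose list was lower there as well, at 118600.0 to 171400.0 CPM against 163600.0 to 243300.0 CPM. This was not particular to that list, since every list other than the lymphocyte one had a lower median there. The epithelial median, for example, was 13040.0 against 18850.0 CPM and the endothelial median 36650.0 against 52100.0 CPM. These libraries were defined by a lymphocyte miRNA and are not a group of the study, and their part in the arms' levels was not tested.

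Of 18 relations of the main arms with marker lists in the 17 libraries, 2 passed by Pearson r. miR-193b-3p was lower where miR-126a-3p, the endothelial miRNA, was higher, with an r of -0.65 (permutation p = 0.00485, adjusted p = 0.0461; rho -0.67, adjusted p = 0.0671), and -0.51 without the 2 libraries farthest from the median. miR-365-3p had a like relation with miR-126a-3p that did not pass, with an r of -0.56 (permutation p = 0.0176, adjusted p = 0.105; rho -0.63, adjusted p = 0.0671), and -0.54 without 2 libraries. miR-365-3p was higher where miR-145a-5p, the smooth muscle miRNA, was higher, with an r of 0.65 (p = 0.00512, adjusted p = 0.0461; rho 0.59, adjusted p = 0.0871), and 0.51 without 2 libraries. By rho neither passed. The 16 besides these 2, with lymphocyte, myeloid, red cell, striated muscle, epithelial, nerve and liver markers and the remaining pairs, did not pass by either measure. The group ranges that follow include the lymphocyte-rich libraries, which did not enter these relations. In the 17 the lowest endothelial level was 35790.0 CPM and the lowest smooth muscle level 1753 CPM. The endothelial level was 36650.0 to 58540.0 CPM in kinase dead trained and 27070.0 to 72550.0 CPM in kinase dead sedentary libraries, and 45160.0 to 59400.0 CPM in wild type trained and 31870.0 to 69640.0 CPM in wild type sedentary ones. The smooth muscle level was 1931 to 2942 CPM in kinase dead trained and 1547 to 2247 CPM in kinase dead sedentary libraries, and 1508 to 3265 CPM in wild type trained and 1974 to 2593 CPM in wild type sedentary ones. Each of these lists is a single miRNA, at 0 in none of the groups, and its part in the group values of the arms was not tested.

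The miRNAs whose levels ran most like the main arms were taken by Pearson r of log2 CPM over the 17 libraries, among 354 features of at least 10 CPM. For miR-193b-3p these were miR-34a-5p, a target of p53 (r = 0.77), miR-345-5p (0.74), miR-34b-5p of the same family as miR-34a (0.72), miR-30b-5p (0.70) and miR-425-3p (0.69). For miR-365-3p they were let-7b-3p, a passenger arm of the let-7 family (0.73), miR-30c-2-3p (0.71), let-7f-2-3p (0.71), miR-664-3p (0.69) and miR-677-3p (0.68). The cluster partner ranked 17 in likeness to miR-193b-3p and 15 in likeness to miR-365-3p, with the r of 0.60. In the 7 lymphocyte-rich libraries, which did not enter the ranking, r with miR-193b-3p was 0.37 for miR-34a-5p and 0.14 for miR-345-5p. It was 0.82 for miR-34b-5p, 0.56 for both miR-30b-5p and miR-425-3p, and 0.74 for miR-365-3p. The r with miR-365-3p was 0.73 for let-7b-3p, 0.78 for miR-30c-2-3p, 0.53 for let-7f-2-3p, 0.75 for miR-664-3p and -0.24 for miR-677-3p. The features named were picked for a high r in the 17, and the cluster partner was not.

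The cluster belongs to a list of miRNAs known to promote brown or beige adipocytes, and the other members gave no call either. Every arm of a listed miRNA was counted, passenger arms included. Of the list's 33 features 29 were tested, the 4 arms of the cluster and 25 others. Of the 29, 0 passed in any of the 6 comparisons, where the background was 0% of 582. The median log2 fold change for training was 0.08 in kinase dead and 0.06 in wild type, against 0.01 over all features in each. In wild type mice 4 of the 29 had an unadjusted p under 0.05, all higher, against 3.09% of all features higher at that p. These were led by miR-203-5p at 0.61 (SE 0.21, adjusted p = 0.779 by edgeR) and miR-203-3p at 0.46 (SE 0.17, adjusted p = 0.779), arms of an epithelial miRNA. That miR-203 was higher here was known when the list was made, so it is no independent evidence. Between genotypes the median of the list was -0.03 in trained and -0.01 in sedentary mice, against 0.01 and -0.02 over all features.

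In kinase dead mice the list's smallest p for training was that of miR-129-5p, at -0.86 (SE 0.28, adjusted p = 0.945 by edgeR). miR-129-5p averaged 51.5 ± 14.8 CPM in trained and 92.9 ± 42.1 CPM in sedentary kinase dead libraries (SD, n = 6 each), and it also stands in the nerve marker list, whose sum was 134 to 201 CPM in trained and 129 to 275 CPM in sedentary kinase dead libraries. The part of nerve in it was not tested. The second was miR-365-1-5p itself. miR-129-5p also had the list's smallest p in sedentary mice, kinase dead against wild type, at 0.49 (SE 0.28), and for the difference of the training effects, at -0.83 (SE 0.40, unadjusted p = 0.0475, adjusted p = 0.993). The remaining features with the 2 smallest p of a comparison were miR-30b-5p, at 0.20 (SE 0.11) between genotypes in trained mice and 0.27 (SE 0.15) for the interaction, miR-203-5p, at -0.34 (SE 0.21) between genotypes in trained mice and 0.43 (SE 0.15) for the averaged training effect, and miR-26b-3p, at -0.36 (SE 0.21) between genotypes in sedentary mice, all on the log2 scale and none past the threshold.

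The opposing list, miRNAs known to restrain brown or beige adipocytes, was also counted by arm. Of its 21 features 19 were tested, and 0 passed in any comparison by edgeR. Its median log2 fold change for training was 0.04 in kinase dead and 0.13 in wild type, against 0.01 over all features in each. In wild type mice miR-34a-5p, which restrains beige adipocytes, was at -0.39 (SE 0.20, unadjusted p = 0.0609), averaging 196.6 ± 43.6 CPM in trained and 257.8 ± 44.1 CPM in sedentary libraries (SD, n = 6 each), and miR-27a-3p, a repressor of Pparg, at 0.30 (SE 0.18). In kinase dead mice miR-199a-5p was at 0.27 (SE 0.15) and the striated muscle miRNA miR-133a-3p, which targets Prdm16, at -1.02 (SE 0.68). Between genotypes miR-133a-3p was at -1.44 (SE 0.68, unadjusted p = 0.0471, adjusted p = 0.996 by edgeR) in trained mice, averaging 121.8 ± 66.1 CPM in kinase dead and 329.4 ± 213.1 CPM in wild type libraries. The 6 striated muscle markers, miR-133a-3p among them, summed to 728 to 2359 CPM in kinase dead trained and 455 to 8488 CPM in kinase dead sedentary libraries, and to 1144 to 6081 CPM in wild type trained libraries. miR-208b-3p was the 1 marker at 0 in a whole group, kinase dead sedentary, and the part of muscle in these values was not tested.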

How the data were processed

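Per the labels' protocols, RNA was isolated with TRIzol and made into libraries with the NEBNext small RNA kit. CASAVA 1.8.2, Trim Galore, Bowtie2, featureCounts and mm10 are named in the submitters' processing notes in unstated roles, without other versions, annotation or settings for strand and multiple mapping. What the authors deposited are raw counts per mature miRNA locus (2045 loci, not normalized). Here loci were named by coordinates (1670 from RefSeq, 371 from GENCODE hairpins, 4 from another copy), and loci with 1 mature accession were summed to 1907 features. filterByExpr kept 582; the rest held 0.0150% of reads. edgeR 4.0.16 (R 4.3.3), with TMM factors, fitted the 4 groups of 6 together and tested 6 contrasts by quasi-likelihood, with Benjamini-Hochberg adjustment over 582 features and a threshold of 0.05. Its p for scarce features is bounded by a Poisson test, so for miR-193b-5p p can exceed what fold and SE give. DESeq2 1.42.0 was an alternative. Ratios were compared by exact permutation tests and relations by 100000 permutations. Replicate numbers follow accession order and pair nothing; no pair of libraries looked like a duplicate (smallest chi-square per degree of freedom 43.6). Members, lists and tests were chosen with earlier results of these data known. Named miRNAs are the members, their chromosome 11 counterparts, the 5 most alike each main arm, and the 2 of smallest p per list and comparison. Alternatives covered tool, filter, summing, groups fitted, pseudocount and libraries left out.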

Additional observations from a re-analysis of the deposited data

Results flagged for a closer look

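Over the 4 arms, the 3 distinct arms from chromosome 11 and the 4 ratios, 44 groups of 6 libraries were searched for 1 library far from the others of its group (gap to the nearest library over the group's range above 0.625), and chance marks about 1 in 20 groups. None of the 4 arms of the cluster was marked. miR-193a-3p stood at 1059 CPM in kinase dead trained replicate 2, against 37.2 to 126 CPM in the other 5 libraries. It stood at 701.3 CPM in kinase dead sedentary replicate 2, against 95.2 to 317.2 CPM in the other 5. miR-193b-3p had 378.7 and 307.3 CPM in these libraries. miR-365-2-5p stood at 9.753 CPM in kinase dead sedentary replicate 1 (79 reads), against 2.79 to 4.09 CPM in the other 5. The same library had 2.96 CPM of miR-365-1-5p.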

How the results depend on the processing

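No feature was called in any comparison under any of the settings tried: DESeq2, no filter on low counts, loci kept separate, only the groups compared in the fit, without the lymphocyte-rich libraries, and without each library in turn (0 to 0 called). Since no arm was called, settings could change only the size, sign and p of these differences. For miR-193b-5p, training in wild type had an unadjusted p of 0.0753 by edgeR, and of 0.0429 with only those groups fitted. Its interaction had an unadjusted p of 0.15 by edgeR. That p was 0.0274 without kinase dead trained replicate 5 and 0.553 without kinase dead sedentary replicate 1. For miR-365-1-5p, kinase dead against wild type in trained mice, the log2 fold change of -0.01 was 0.054 with DESeq2, 0.023 with no filter, 0.0026 with loci separate, 0.0408 with only those groups, 0.0174 without the lymphocyte-rich libraries and -0.0945 to 0.0956 without each library in turn. For miR-365-3p, training in wild type was 0.0184 with no filter, 0.125 without the lymphocyte-rich libraries and -0.137 to 0.0221 without each library. For miR-193b-3p, training in kinase dead was -0.0324 to 0.0912 without each library. Without the lymphocyte-rich libraries, signs also turned for miR-193b-3p between genotypes in trained mice (-0.0601), for miR-365-1-5p between genotypes in sedentary mice (0.0897) and in the interaction (-0.0723), and for log2 ratios between genotypes: miR-193b-3p to miR-365-3p (-0.08) and miR-365-3p to its 5p arms (-0.0409) in sedentary mice, and miR-193b-3p to miR-193a-3p in trained mice (-0.977). The cause was not tested. Leaving out a library also changes which features pass the filter and the scaling. No paired analysis was possible because replicate numbers are in accession order. At these depths the passenger arms, with 4 to 158 reads a library, are limited by counting error.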
